A study of Mus musculus with 2 samples.

Results

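Cxcl12, its receptors Cxcr4 and Ackr3, and 4 homeostatic or membrane-bound chemokines (Cxcl13, Cxcl14, Cxcl16 and Cx3cl1) were followed in primary mouse osteoblasts exposed to medium from prostate cancer cells. All probe sets that the platform annotation maps to 1 of these 7 gene symbols alone were taken, which gave 15 probe sets for the 7 genes, out of 18193 genes with a probe set. The osteoblasts had been kept for 10 days in alpha-MEM with beta-glycerophosphate (10 mM), ascorbic acid (50 µg/ml) and calf serum (10%, fetal) so that they differentiated, and were starved of serum overnight. 1 culture received PC-3 medium and 1 received MDA-PCa2b medium for 6 hours, and the RNA of each was hybridised to 1 Affymetrix mouse array. PC-3 and MDA-PCa2b are human prostate cancer lines, both from bone metastases: PC-3 is known for bone-destroying lesions and MDA-PCa2b for bone-forming ones. The labels do not give the strain or the age of the animals, the bone the osteoblasts came from, or how the media were conditioned. Osteoblasts in medium of no cancer cell were not analysed here, so a higher value with PC-3 medium may equally be a lower one with MDA-PCa2b medium. With 1 array per medium there was no replicate and no test, and no error or p-value between the media is given.

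Chemokines are small secreted proteins that steer cells along a gradient through receptors of the G protein-coupled family. Cxcl12, also called SDF-1, is made by osteoblasts and other stromal cells of bone marrow, and it holds blood stem cells in the marrow and draws tumour cells that carry Cxcr4. Cxcr4 passes the Cxcl12 signal into the cell, whereas Ackr3 (formerly Cxcr7) binds Cxcl12, takes it up and passes it to degradation, so that it shapes the gradient. Cxcl13 guides B cells into lymphoid follicles, and Cxcl14 is made constitutively by epithelia and other tissues. Cxcl16 and Cx3cl1 (fractalkine) are made as membrane-anchored proteins, and the proteases Adam10 and Adam17 release their soluble forms.

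Every measured gene of the 7 gave a higher signal with PC-3 medium than with MDA-PCa2b medium. On both arrays 5 of the 7 genes gave signals over the floor, the floor being the 50th percentile of an array's probe sets, 57.7 with PC-3 medium and 56.7 with MDA-PCa2b medium. By the brightest probe set of each gene, Cxcl14, Ackr3 and Cxcl12 passed 2-fold with the higher signal in PC-3 medium, Cx3cl1 and Cxcl16 did not reach 2-fold, and no gene was lower. Among all 11335 measured genes 2.12% were at least 2-fold higher, 1.85% at least 2-fold lower, and 44.4% had a log2 ratio above 0. Cxcr4 and Cxcl13 were below the floor on both arrays and have no ratio. By probe set, 6 of the 9 measured were at least 2-fold higher and none lower, against 2.13% higher and 1.54% lower among all named probe sets, and all 9 had a log2 ratio above 0 (46.9% of all named probe sets did).

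**Figure D1:**
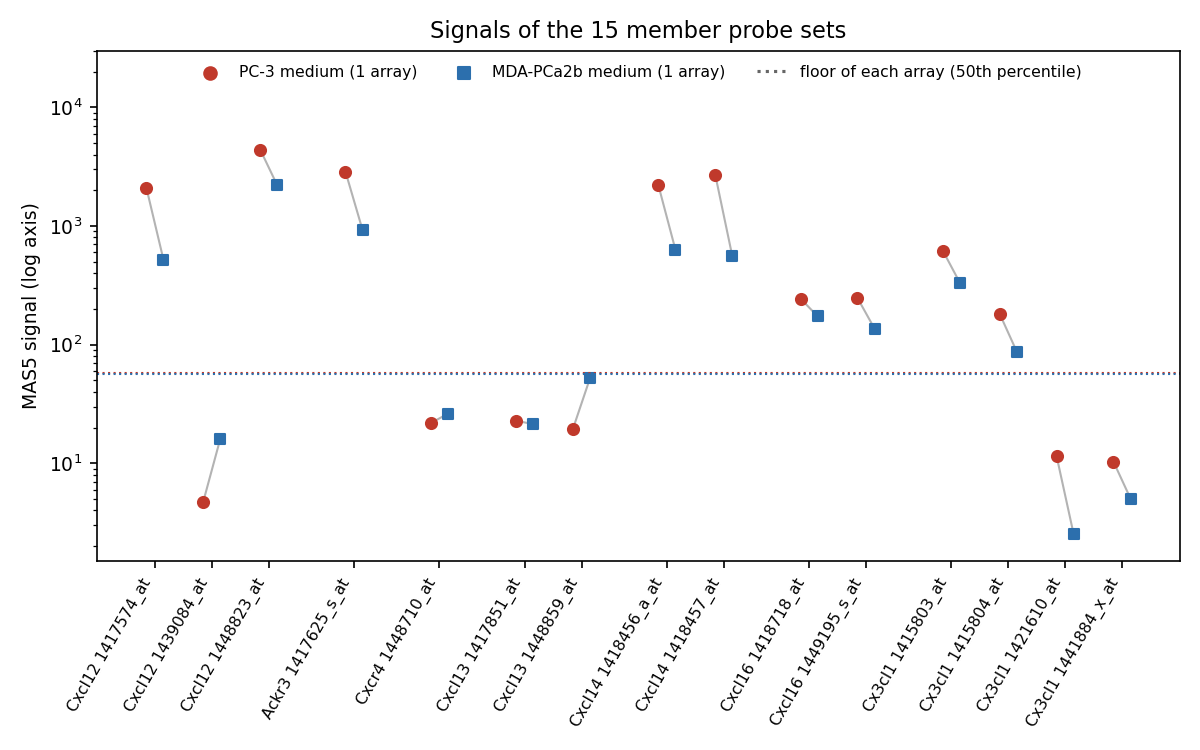
MAS5 signals (log axis) of the 15 probe sets of the 7 genes, with PC-3 medium (red circles) and MDA-PCa2b medium (blue squares), 1 array each; dotted lines mark the floor of each array. The 9 probe sets above both floors all have the PC-3 medium signal on top, and the single Cxcr4 and both Cxcl13 probe sets lie below the floors.

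The ligand Cxcl12 had 3 probe sets, which did not give the same size of difference. The brightest, 1448823_at, had a signal of 4411 with PC-3 medium and 2206 with MDA-PCa2b medium, 2.0001-fold higher (log2 ratio 1.00007). This value lies on the 2-fold threshold itself and fell just under it, to a log2 ratio of 0.99, when log2(signal + 16) was used without a floor. The second, 1417574_at, had a signal of 2097 with PC-3 medium and 521 with MDA-PCa2b medium, 4.03-fold higher (log2 ratio 2.01). Both probe sets were far above the floor on both arrays and had the same direction, but their log2 ratios differed by 1.01. Over the 4924 genes measured by several probe sets, the span of a gene's log2 ratios had a median of 0.26, and 2.07% of these genes spanned at least as much as Cxcl12. Cxcl12 is known to make splice forms with different ends. The annotation ties 1417574_at to NM_013655, a RefSeq transcript of the gene, and 1448823_at to a cDNA, BC006640; probe sequences were not used here, so which splice forms each probe set reads was not tested. The third probe set, 1439084_at, was below the floor on both arrays, with signals of 4.75 and 16.1 for PC-3 and MDA-PCa2b medium, and has no ratio.

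Both receptors of Cxcl12 were on the array, each with 1 probe set, and they stood on opposite sides of the floor. Ackr3, the scavenging receptor, had a signal of 2867 with PC-3 medium and 925 with MDA-PCa2b medium, 3.10-fold higher (log2 ratio 1.63). Of 10649 genes over both floors, 70 had a higher ratio than Ackr3. Its probe set, 1417625_s_at, has an ID of the kind that can match several transcripts, and the gene has no second one to set beside it. Cxcr4, the signalling receptor, had signals of 21.8 with PC-3 medium and 26.2 with MDA-PCa2b medium, below the floor of each array. A signal below the floor does not show that the transcript was absent.

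By brightest probe sets Cxcl14 had the highest ratio of the 5 measured genes, and both of its probe sets were over 3-fold higher; the second one lay below the second Cxcl12 probe set (log2 ratio 2.01). The brightest, 1418457_at, had a signal of 2702 with PC-3 medium and 556 with MDA-PCa2b medium, 4.86-fold higher (log2 ratio 2.28), and 21 genes had a higher ratio. The other, 1418456_a_at, had a signal of 2205 with PC-3 medium and 631 with MDA-PCa2b medium, 3.49-fold higher (log2 ratio 1.80). The log2 ratios differed by 0.48, and in 22.2% of genes measured by several probe sets the span was at least as wide. Both Cxcl14 signals were at least 9.80 times the floor with MDA-PCa2b medium, so neither ratio rests on a signal near it.

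By their brightest probe sets the membrane-anchored chemokines had smaller ratios than the 3 genes above, with signals closer to the floor. Cx3cl1 by 1415803_at had a signal of 619 with PC-3 medium and 332 with MDA-PCa2b medium, 1.86-fold higher (log2 ratio 0.90), and by 1415804_at a signal of 182 with PC-3 medium and 87.3 with MDA-PCa2b medium, 2.08-fold higher (log2 ratio 1.06). These lie on either side of the 2-fold threshold but differ by only 0.16 on the log2 scale. The other 2 Cx3cl1 probe sets, 1421610_at and 1441884_x_at, were below the floor, with signals of 11.5 and 10.3 in PC-3 medium and of 2.53 and 5.03 in MDA-PCa2b medium. Cxcl16 by 1418718_at had a signal of 244 with PC-3 medium and 173 with MDA-PCa2b medium, 1.41-fold higher (log2 ratio 0.50). By 1449195_s_at it had a signal of 247 with PC-3 medium and 136 with MDA-PCa2b medium, 1.81-fold higher (log2 ratio 0.86). The Cxcl16 log2 ratios were 0.36 apart, and 34.2% of genes measured by several probe sets spanned at least as much; for Cx3cl1 that share was 67.9%. Probe sets of a gene varied around their own mean with an SD of 0.24 over all genes. This SD is measurement scatter within 1 pair of arrays and leaves out the spread between cultures.

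The B-cell chemokine Cxcl13 was below the floor by both probe sets. The signals of 1448859_at were 19.6 with PC-3 medium and 52.4 with MDA-PCa2b medium, and those of 1417851_at were 22.8 with PC-3 medium and 21.3 with MDA-PCa2b medium. The probe sets went opposite ways, and no direction is given for this gene.

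**Figure D2:**
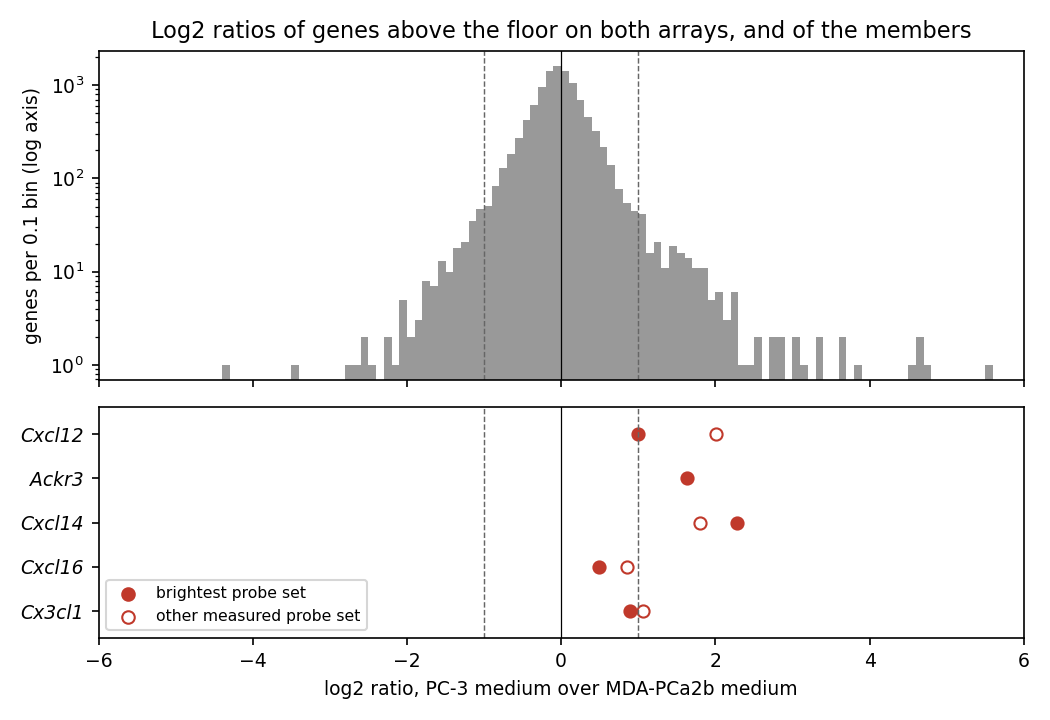
Top, log2 ratios (PC-3 medium over MDA-PCa2b medium) of the 10649 genes over both floors, as genes per bin on a log axis; bottom, the 9 measured member probe sets, filled for the brightest of a gene and open for the other. All member points lie right of 0. Those of Cxcl14, Ackr3 and Cxcl12 and the open point of Cx3cl1 (1.06) lie at or beyond the dashed 2-fold line.

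The proximal promoters of the 4 genes with the highest ratios that have an entry in the RefSeq promoter table (GRCm38.p6) are shown because these genes were higher together with PC-3 medium. Each window runs from 250 bases before to 50 after the annotated start and is written along the gene. Capitals mark matches, on either strand, to 5 motifs: the NF-kB decamer (by its consensus), ACGTG of hypoxia response elements, the AP-1 motifs TGACTCA and TGAGTCA, the STAT motif TTCNNNGAA, and TATAAA of the TATA box.
Cxcl12, chr6:117168285-117168584, plus strand: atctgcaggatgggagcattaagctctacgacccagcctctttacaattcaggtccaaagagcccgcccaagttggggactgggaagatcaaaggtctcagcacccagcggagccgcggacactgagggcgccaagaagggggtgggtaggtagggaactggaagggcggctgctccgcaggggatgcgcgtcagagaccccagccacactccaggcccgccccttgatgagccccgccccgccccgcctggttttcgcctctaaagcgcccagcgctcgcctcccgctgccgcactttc
Ackr3, chr1:90203730-90204029, plus strand: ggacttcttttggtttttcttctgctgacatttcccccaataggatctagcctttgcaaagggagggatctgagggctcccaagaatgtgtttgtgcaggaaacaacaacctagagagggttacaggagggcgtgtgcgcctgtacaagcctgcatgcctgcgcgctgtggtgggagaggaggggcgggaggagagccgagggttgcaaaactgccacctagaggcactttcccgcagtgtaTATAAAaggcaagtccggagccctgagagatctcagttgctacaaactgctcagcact
Cxcl14, chr13:56296502-56296801, minus strand: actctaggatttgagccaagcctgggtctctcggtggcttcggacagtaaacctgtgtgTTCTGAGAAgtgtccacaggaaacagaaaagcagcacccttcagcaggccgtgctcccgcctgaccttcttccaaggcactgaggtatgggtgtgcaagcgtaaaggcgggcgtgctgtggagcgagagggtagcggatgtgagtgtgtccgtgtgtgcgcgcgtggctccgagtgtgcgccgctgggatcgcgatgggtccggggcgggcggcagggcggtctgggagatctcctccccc
Cx3cl1, chr8:94771930-94772229, plus strand: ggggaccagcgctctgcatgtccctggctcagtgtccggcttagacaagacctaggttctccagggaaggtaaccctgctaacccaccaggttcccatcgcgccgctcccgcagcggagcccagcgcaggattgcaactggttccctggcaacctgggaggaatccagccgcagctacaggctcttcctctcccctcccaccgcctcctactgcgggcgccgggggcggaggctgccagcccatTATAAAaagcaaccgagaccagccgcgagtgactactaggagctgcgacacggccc
The Cxcl14 window holds a STAT motif, TTCTGAGAA, at positions -191 to -183 from the start, which reads as the motif on both strands and is 1 site; 8.30% of all 32851 promoter windows hold this motif. The Ackr3 window holds TATAAA at -8 to -3 and the Cx3cl1 window at -6 to -1, as 13.6% of windows hold it somewhere. The windows of Cxcr4 and Cxcl13, below the floor and not shown, hold TATAAA too, at -30 to -25 and at -46 to -41. The Cxcl12 window holds none of the 5 motifs. None of the 4 windows holds the NF-kB decamer, ACGTG or the AP-1 motifs, which 8.46%, 19.6% and 5.20% of all windows hold. A match is a description of letters, and no match says only that these letters are not in this window.

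The inflammatory chemokine ligands ranged from well above the members to below them. Of 22 such genes 15 were measured. Of these 8 were at least 2-fold higher and none 2-fold lower, against 2.12% and 1.85% of all measured genes. Their median log2 ratio was 1.35, against 1.00007 for the 5 measured members and -0.04 for all measured genes. The neutrophil chemokines Cxcl5 and Cxcl1 had log2 ratios of 5.52 and 4.55, and the monocyte chemokines Ccl7 and Ccl2 had 4.02, a bound, and 3.83. By contrast, 5 ligands lay below every measured member by brightest probe sets: Cxcl10 (0.41), Ccl4 (0.18), Cxcl2 (0.16), Pf4 (-0.05) and Ccl3 (-0.33). These 5 were chosen after their values were seen. Cxcl3 was left out because its log2 ratio of 0.05 is a bound, its signal being below the floor with MDA-PCa2b medium. Of 9 other homeostatic ligands 7 had a probe set and 2 were measured: the skin and mucosal chemokines Ccl27a (log2 ratio 0.28) and Ccl28 (0.49). The difference between these lists was not tested, since 1 array per medium allows no test.

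Receptors for the other ligands were mostly below the floor. Of 21 other chemokine receptor genes 19 had a probe set and 17 of them were below the floor on both arrays, including the Cxcl13 receptor Cxcr5 and the Cxcl16 receptor Cxcr6. Cx3cr1, the receptor of Cx3cl1, had a signal of 105 with PC-3 medium and 150 with MDA-PCa2b medium (log2 ratio -0.51). The scavenging receptor Ackr4 had a signal of 148 with PC-3 medium and 259 with MDA-PCa2b medium (log2 ratio -0.80), but its other probe sets ranged from -0.48 to 0.27. The ratios of Cx3cr1 and Ackr4 were below 0, whereas that of Ackr3 was 1.63.

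Ackr3 and Cxcr4 have further ligands and partners, of which 7 of 10 were measured. Against 2.12% higher and 1.85% lower among all measured genes, 1 was at least 2-fold higher and none lower. That gene was Adm, whose peptide adrenomedullin is also taken up by Ackr3. It had a signal of 255 with PC-3 medium and 88.8 with MDA-PCa2b medium (log2 ratio 1.52, second probe set 1.27). Mif, a cytokine that also binds Cxcr4, had signals of 7282 with PC-3 medium and 6839 with MDA-PCa2b medium (log2 ratio 0.09), and its receptor chain Cd74 had a log2 ratio of 0.63. Penk, the source of enkephalins, which Ackr3 also scavenges, had a log2 ratio of -0.26. The adrenomedullin co-receptor genes Ramp2 and Ramp3 had 0.64 and -0.01, while the adrenomedullin receptor gene Calcrl was below the floor on both arrays.

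Genes that relay or end chemokine receptor signals did not move as a group. Of 31 such genes 26 were measured, with a median log2 ratio of 0.01. At least 2-fold higher was 1 and at least 2-fold lower were 2, against 2.12% and 1.85% of all measured genes. Arrb1, a beta-arrestin gene that couples receptors to internalisation, had a signal of 212 with PC-3 medium and 105 with MDA-PCa2b medium (2.01-fold higher). This value lies just over the threshold, and no other probe set of Arrb1 was measured. Gnai1, a subunit of the inhibitory G protein that chemokine receptors use, had a signal of 1116 with PC-3 medium and 2764 with MDA-PCa2b medium (2.48-fold lower), with -1.30 and -1.22 on the log2 scale by its remaining probe sets. The related subunit genes Gnai2 and Gnai3 had log2 ratios of -0.13 and -0.01. Elmo1, a Rac activator subunit, was 2.74-fold lower, with a log2 ratio of -0.62 by its dimmer probe set.

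Of 20 genes for proteases that shed or cleave chemokines and for their inhibitors 16 were measured, with a median log2 ratio of 0.25. At least 2-fold higher were 3 and none lower, against 2.12% and 1.85% of all measured genes. The sheddases of Cxcl16 and Cx3cl1 did not reach 2-fold. Adam10 had a log2 ratio of -0.04 (0.18 to 0.57 by its other probe sets). Adam17 had one of 0.41 (0.36 to 0.48 by its other probe sets). Rhbdf2, which brings Adam17 to the cell surface, had a signal of 136 with PC-3 medium and 16.7, below the floor, with MDA-PCa2b medium (at least 2.40-fold higher). Mmp3, a matrix protease that can cleave Cxcl12, was at least 9.25-fold higher, and Timp1, a protease inhibitor, 2.04-fold higher. Dpp4, which trims the start of Cxcl12 and so inactivates it, was below the floor on both arrays.

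Heparan sulphate chains hold Cxcl12 at cell surfaces and in matrix. Of 29 genes for their core proteins and enzymes 23 were measured, with a median log2 ratio of 0.07. At least 2-fold higher was 1 and lower 1, against 2.12% and 1.85% of all measured genes. The syndecan gene Sdc4 had a signal of 2875 with PC-3 medium and 673 with MDA-PCa2b medium (4.27-fold higher), whereas the second gave only 0.34 on the log2 scale. Hs3st3b1, a heparan sulphotransferase gene, was 2.24-fold lower, with a log2 ratio of -0.38 by its other probe set.

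Stromal and blood stem cell niche genes, often found with high Cxcl12 in marrow, gave no common direction. Of 24 such genes 22 were measured, and the median log2 ratio was 0.01. At least 2-fold higher was 1 and lower 1, against 2.12% and 1.85% of all measured genes. Vcam1, an adhesion molecule that holds blood cells, had a signal of 2982 with PC-3 medium and 1058 with MDA-PCa2b medium (2.82-fold higher, with 1.55 and 1.58 on the log2 scale by the remaining probe sets). Cdh2, the N-cadherin gene, had a signal of 771 with PC-3 medium and 2194 with MDA-PCa2b medium (2.84-fold lower, -1.23 by its other probe set). Kitl, the stem cell factor gene, had a log2 ratio of 0.40, Foxc1, a transcription factor of Cxcl12-rich marrow stroma, one of -0.09, and Ebf3, another such factor, one of -0.32; these 3 were chosen after their values were seen.

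**Figure D3:**
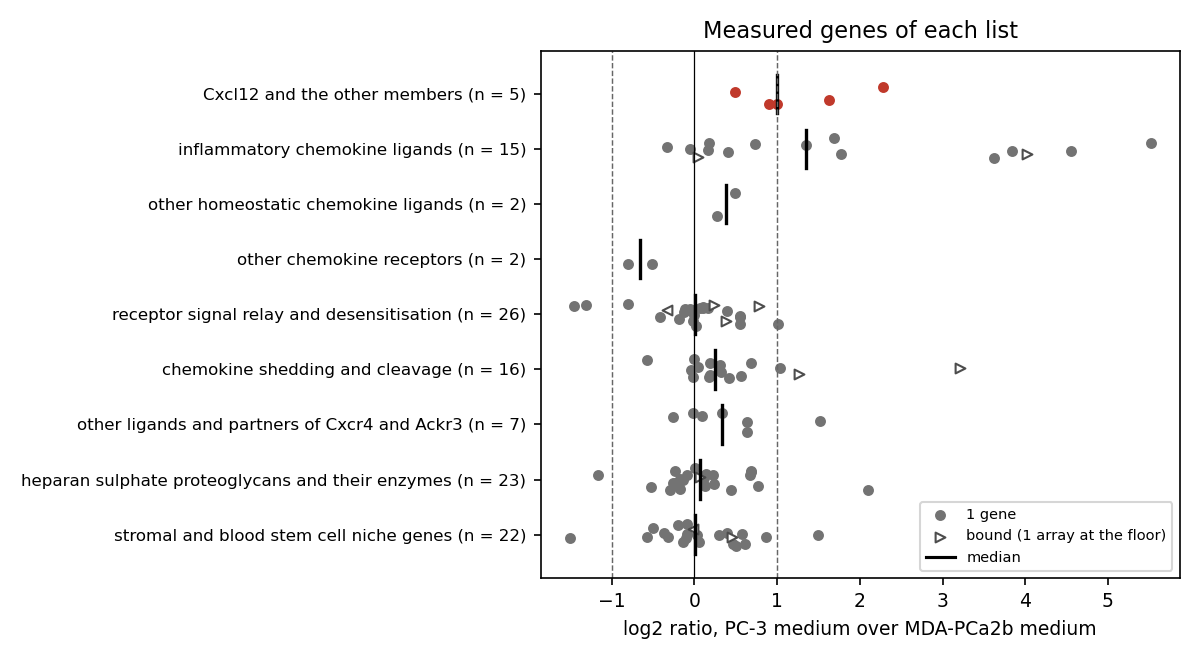
Log2 ratios (PC-3 medium over MDA-PCa2b medium) of the measured genes of each list, 1 point per gene by its brightest probe set, with triangles for bounds and a black bar for the list's median; the vertical scatter has no meaning. The 5 members and most inflammatory ligands lie right of 0, while the relay and niche genes centre on 0.01.

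The label of the cells was set against marker genes. Of 12 osteoblast markers 9 had a probe set annotated to that gene alone, and all 9 exceeded the floor in both media. Runx2, Bglap and Bglap2 had no such probe set and were not assessed. By brightest probe sets all 9 had a log2 ratio below 0, while 44.4% of all measured genes had one above 0. Those of Col1a1 (-0.004), Sparc (-0.02) and Col1a2 (-0.02) were close to 0. Other probe sets gave -0.15 for Col1a1, 0.03 to 0.33 for Sparc and -0.59 to -0.08 for Col1a2. Ifitm5, an osteoblast membrane protein gene, was 6.00-fold lower and Dmp1, which encodes a matrix protein of osteocytes, 4.14-fold lower, while the other 7 did not reach 2-fold. Macrophage and osteoclast markers were above the floor for 16 of 17 genes, among them Adgre1 (signals of 1405 with PC-3 medium and 1346 with MDA-PCa2b medium) and Csf1r (2378 with PC-3 medium and 2713 with MDA-PCa2b medium). Their summed signal was 28033 with PC-3 medium and 27185 with MDA-PCa2b medium, and none differed 2-fold. Fcgr1 (log2 ratio 0.82, but -0.02 by its second probe set) and Cd68 (0.59) differed most. Of 7 chondrocyte markers 6 were measured, among them Col2a1 (signals of 4162 with PC-3 medium and 4471 with MDA-PCa2b medium), Col9a1 (4402 with PC-3 medium and 4458 with MDA-PCa2b medium) and Comp (3657 with PC-3 medium and 4154 with MDA-PCa2b medium). Their summed signal was 14307 with PC-3 medium and 15378 with MDA-PCa2b medium, and none differed 2-fold; the largest differences were those of Acan (-0.48) and Sox9 (-0.22). The cultures thus gave macrophage and cartilage transcripts beside osteoblast ones, and which cells the chemokine signals came from was not tested. In such a mixture fewer cells of a type and less RNA per cell cannot be told apart. Endothelial markers, including Pecam1 and Cdh5, were below the floor for 9 of 11 genes (Egfl7 had a log2 ratio of 0.12 and Erg one of 0.04), and lymphocyte and neutrophil markers for 11 of the 12 with a probe set, Cd8a alone being above it, with MDA-PCa2b medium. Of 6 adipocyte markers with a probe set 4 were measured and none differed 2-fold. Fabp4 came closest at 1.97-fold higher, before Adipoq at 1.38-fold, while Lpl (log2 ratio -0.33) and Pparg (-0.07, a bound) were lower. Their summed signal was 2827 with PC-3 medium and 3095 with MDA-PCa2b medium.

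Both arrays had the same mean signal without the lowest and highest 2% of probe sets, 300.002. Scaling of each array to a common target would give this equality, so it does not measure how alike the arrays were. The median log2 ratio of all measured genes was -0.04. For beta-actin, the signal of the 3' probe set over that of the 5' one, a measure of RNA integrity, came to 1.504 with PC-3 medium and 1.399 with MDA-PCa2b medium. For Gapdh it came to 0.722 with PC-3 medium and 0.734 with MDA-PCa2b medium, so the small differences ran in opposite directions. The plot of member ratios by setting covers other floors, scalings and choices of probe set. In it Ackr3, Cxcl14, Cx3cl1 and Cxcl16 moved from their reported values by less than the probe set SD. Other floors left every ratio they kept as it was, since its signals were above them. The value of Cxcl12 depended on which of its probe sets was used.

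**Figure D4:**
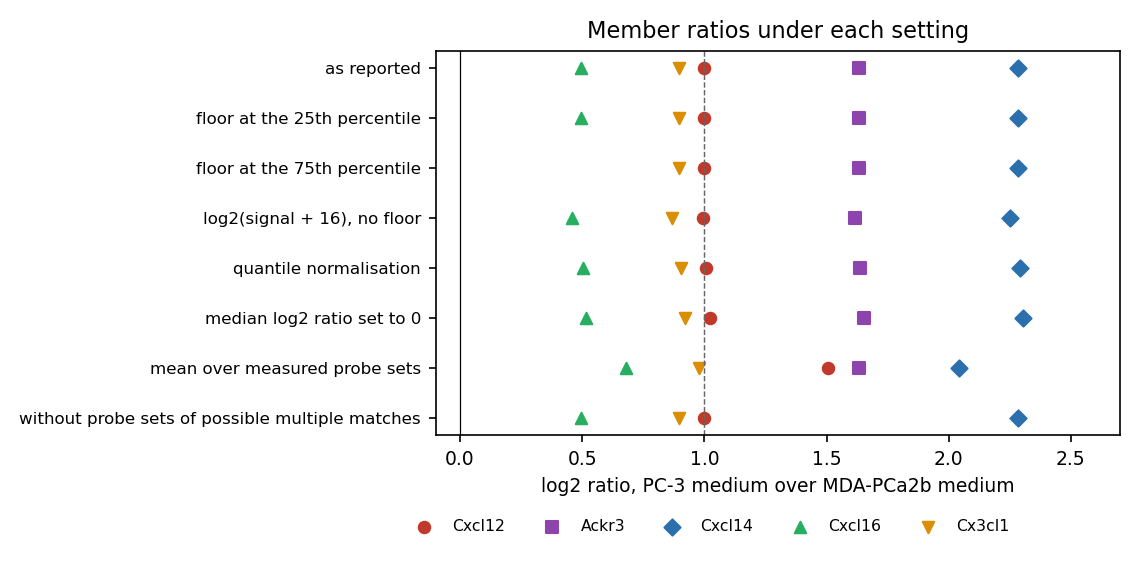
Log2 ratios (PC-3 medium over MDA-PCa2b medium) of the 5 measured members as reported and under each alternative processing; the dashed line marks 2-fold, and a missing point means no value under that setting. Ackr3 and Cxcl14 lie beyond 2-fold wherever they have a value, Cxcl12 sits on the line except when its probe sets are averaged (1.51), and Cxcl16 and Cx3cl1 stay below it.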

How the data were processed

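RNA of 2 osteoblast cultures, 1 per medium, was measured on 1 array each. The deposited values are probe set signals, an intensity on a linear scale, which the submitters' processing notes credit to MAS5 and GCOS 1.4; no source used here gave the authors' scaling target or detection calls. Of 45101 probe sets 64 controls were left out; 0 columns went unused. Groups came from the source description, since the PC-3 title also contains part of the other line's name.

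Gene names came from the platform annotation (34958 with 1 gene, 932 with several, 9211 not listed); Entrez identifiers changed 0 symbols. Signals below an array's 50th percentile were set to that floor before log2 was taken; with 1 array at the floor the ratio is a bound, with both there is none. The brightest probe set stood for its gene. All members were named, and in each list the genes at least 2-fold different, at most 4, or the 2 largest; genes named outside this rule were chosen for their known role, after their values were seen. Members and lists were chosen with earlier results of these data known. Scripts ran in Python 3.11.15 with pandas 2.3.3 and were tested on simulated data. The number of arrays limits the precision. Alternatives were other floors, log2(signal + 16), quantile normalisation, the median ratio set to 0, averaged probe sets, probe sets of a single match, and thresholds of 1.5-fold and 3-fold.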

Additional observations from a re-analysis of the deposited data

How the results depend on the processing

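No member ratio changed sign under any alternative that gave it a value. The log2 ratio ranged from 2.04 to 2.30 for Cxcl14, from 1.62 to 1.65 for Ackr3, from 0.87 to 0.98 for Cx3cl1 and from 0.46 to 0.68 for Cxcl16, with no value farther from the reported one than the scatter between probe sets of a gene (SD 0.24). That of Cxcl12 was 1.51 with its probe sets averaged, because the second one gave 2.01. Cxcl16 has no value at a 75th-percentile floor, nor has Ackr3 without probe sets of possible multiple matches. The members at least 2-fold higher numbered 3, but 2 (Cxcl12 dropping out) with log2(signal + 16) or a 3-fold threshold, 2 (Ackr3 dropping out) with probe sets of a single match, and 4 (with Cx3cl1) at 1.5-fold. With the floor at the 25th percentile 1 member was at least 2-fold lower: Cxcl13, at -1.42 by its brightest probe set and 0.10 by the other, and Cxcr4 was at -0.26.

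The counts of all genes at least 2-fold higher and lower, 240 and 210, became 684 and 589 for a floor at the 25th percentile, 127 and 77 for the 75th, and 527 and 436 with log2(signal + 16). They were 634 and 744 at 1.5-fold and 96 and 46 at 3-fold. Signals near the floor, such as those of Cxcl16 and the dimmer Cx3cl1 probe set, carry the least certain ratios. No paired analysis was possible because each medium had 1 array.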
